A study of Mus musculus with 8 samples.

Results

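Expression of 43 genes of the chemokine system, 31 ligands and 12 receptors including Cx3cr1, was examined in pancreatic tumors of wild-type and complement C3-deficient mice. The genes were chosen by name, and all 43 were present among the 29968 genes of the deposited RNA-Seq table. The tumors came from 4 WT mice and 4 C3-/- mice, both described by the paper as C57BL/6J. In C3-/- mice the gene for complement C3, the central protein of the complement cascade, is deleted in the host. All mice were 12-week-old males. Each received 250000 KPC FC1245 cells in 50 μL of PBS in the tail of the pancreas, and tumors were collected at the endpoint on day 14. KPC FC1245 is a mouse pancreatic cancer line isolated from the tumor of 1 mouse whose LSL-controlled alleles, a mutant Trp53 among them, were switched on by Pdx-1-Cre. The same line was used in both groups, and the host deletion does not remove C3 from the injected cells. The C3 transcript was at 209.6 to 425.9 CPM in WT tumors and at 100.3 to 133.7 CPM in C3-/- tumors, where CPM is the count scaled to the tumor's TMM-normalized total.

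Chemokines are small secreted proteins that guide leukocytes along concentration gradients by binding G protein-coupled receptors on their surface. They are named CC, CXC, C or CX3C after the spacing of their conserved cysteines. Several ligands can share a receptor, and atypical receptors bind ligands without classical G protein signaling and so remove or hold them. In pancreatic tumors the system is known for recruiting monocytes through Ccr2, neutrophils through Cxcr2 and T cells through Cxcr3, and for the Cxcl12 made by fibroblasts.

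Each tumor had 13266029 to 23354212 counts in total. Summed levels of 6 KPC tumor epithelial markers were 5420 to 8888 CPM in WT and 4747 to 7875 CPM in C3-/- tumors, whereas those of 8 acinar markers spread from 173.0 to 448.2 CPM and from 38.8 to 1639 CPM. Skeletal muscle markers ranged from under 1 CPM (0.904) to 2786 CPM in WT tumors and from 1.68 to 2633 CPM in C3-/- tumors. The labels named no batch.

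Of the 43 genes, 39 had enough counts to be tested. The other 4, the ligands Ccl28 and Xcl1 and the receptors Cxcr3 and Cxcr6, had too few counts to judge. At least 10 counts in every tumor were found for 29 genes, and 10 of the genes tested (Ccl3, Ccl4, Ccl5, Cxcl1, Cxcl9, Cxcl15, Ccr7, Ackr1, Ackr2 and Ackr4) fell below 10 counts in at least 1 tumor. By edgeR's quasi-likelihood test, 0 of 39 had a Benjamini-Hochberg adjusted p below 0.05 (0% of 16610 genes tested), with a smallest adjusted p of 0.933. DESeq2 called 1 of them, Cx3cr1 (0.0848% of 18864 genes called). C3 itself, deleted in the host, was not called by edgeR (unadjusted p = 8.55e-05, adjusted p = 0.933) but was called by DESeq2 (adjusted p = 1.2e-05). The lack of an edgeR call therefore does not show that a gene was equal between the genotypes. An unadjusted edgeR p below 0.05 was found for 5 of 39, against 5.11% of all genes. Cx3cr1 and Ccl25 were on the higher side in C3-/- tumors (3.03% of all genes) and Cxcl13, Ccl6 and Ackr4 on the lower side (2.07% of all genes). The median log2 fold change over the 39 was -0.01, with 19 above 0 and 20 below, and over all genes tested it was -1e-04. For 2 of the 39, Cx3cr1 and Cxcl13, no C3-/- tumor lay within the WT range, which was the case for 3.73% of all genes (above WT for 2.28% and below for 1.45%).

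Cx3cr1, the receptor for the CX3C ligand, marks monocytes, many tissue macrophages and subsets of dendritic, NK and T cells. It lies on the minus strand of mm39 chromosome 9, from 119730682 to 119898945. It was counted 195, 151, 150 and 252 times in WT replicates 1 to 4 and 400, 318, 391 and 505 times in C3-/- replicates 1 to 4. Scaled to depth, these were 12.1, 11.4, 11.3 and 10.7 CPM against 18.7, 17.8, 24.6 and 27.6 CPM. All 4 C3-/- tumors were above all 4 WT tumors, and the WT tumors lay close together while the C3-/- tumors spread from 17.8 to 27.6 CPM. The log2 fold change of C3-/- relative to WT was 0.96 (SE 0.17, unadjusted p = 0.000239 and adjusted p = 0.933 by edgeR). DESeq2 gave an adjusted p of 0.00577, and over the alternatives tried, tumors left out included, the adjusted p ranged from 0.000329 to 0.9999. The fold change stayed between 0.84 and 1.06 when any 1 tumor was left out. The DESeq2 call did not hold without WT replicate 3 (adjusted p = 0.0555), WT replicate 4 (0.236), C3-/- replicate 3 (0.238) or C3-/- replicate 4 (0.102), and it held without each of the other 4 tumors (0.000329 to 0.0285). Of all genes, DESeq2 called 0.0502%, 0.135%, 0.0134% and 0.00338% without WT replicates 1 to 4 and 0.73%, 0.149%, 0.00672% and 0.0183% without C3-/- replicates 1 to 4.

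Cx3cl1, or fractalkine, is the only known CX3C ligand, made as a membrane-bound adhesion molecule on endothelium and epithelium that proteases can release. It was among the least variable genes of the system. Its level was 96.0, 93.7, 86.3 and 83.6 CPM in the WT tumors and 90.2, 115, 101 and 93.8 CPM in the C3-/- tumors. These ranges overlapped, with a log2 fold change of 0.16 (SE 0.12). For each 100 Cx3cl1 counts there were 12.1 to 13.1 Cx3cr1 counts in WT tumors and 15.4 to 29.4 in C3-/- tumors, so the receptor was higher relative to its ligand in every C3-/- tumor.

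**Figure D1:**
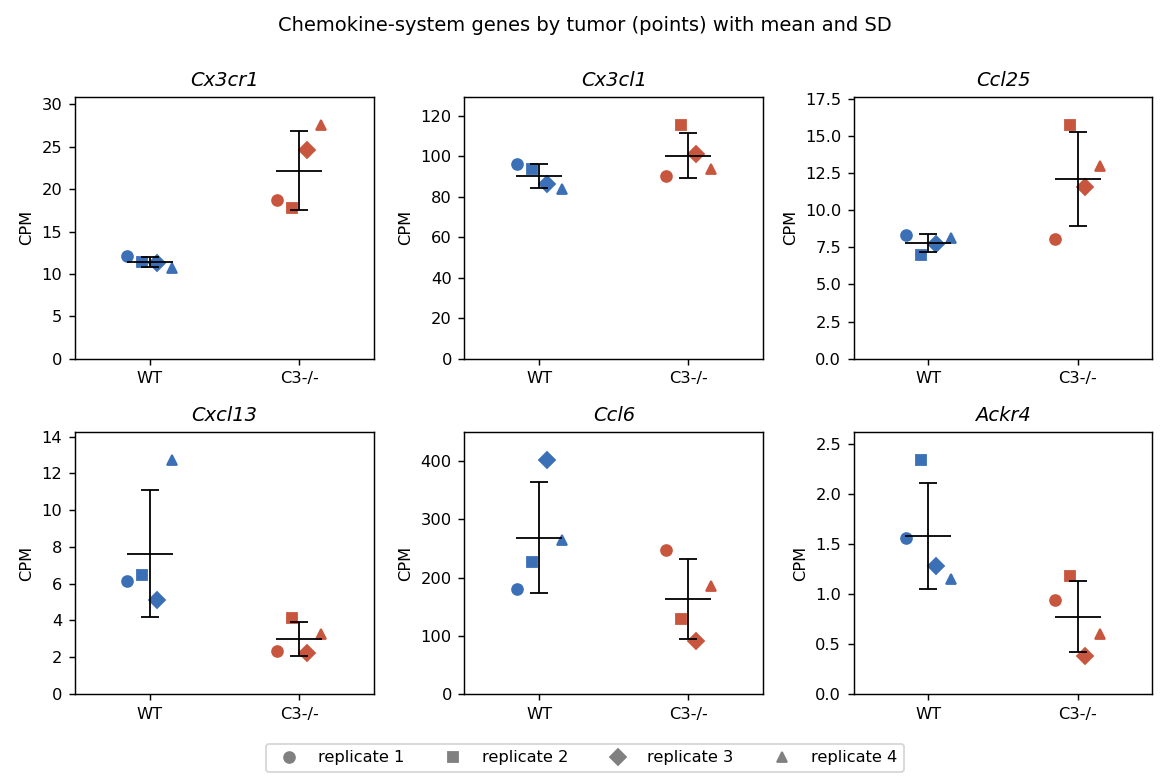
Level in CPM (y axis) of Cx3cr1, its ligand Cx3cl1 and the 4 other genes with an unadjusted edgeR p below 0.05, in 4 WT (blue) and 4 C3-/- (red) tumors. Marker shapes are replicate numbers, and bars are the mean and SD. The genotypes separate for Cx3cr1 (WT at most 12.1, C3-/- at least 17.8) and Cxcl13 (WT at least 5.12, C3-/- at most 4.14) and overlap in the other panels.

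In bulk tumor RNA, more cells of a type and more RNA per cell cannot be told apart, so Cx3cr1 was set beside markers of the cells that carry it. Per 100 counts of Ptprc, the gene for the pan-leukocyte antigen CD45, Cx3cr1 had 48.1 to 56.4 counts in WT tumors and 62.8 to 85.6 in C3-/- tumors. The ranges also stood apart per 100 counts of the macrophage genes Adgre1 (45.3 to 52.4 against 52.9 to 102), Cd68 (22.9 to 31.2 against 35.3 to 98), Mrc1 (6.45 to 9.08 against 12.8 to 25.7) and Itgam (20.9 to 40.0 against 60.1 to 141). They overlapped per 100 counts of Csf1r, the receptor for macrophage colony-stimulating factor, where C3-/- replicate 1 had 13.1 and WT tumors reached 13.2. They overlapped as well per 100 counts of the monocyte receptor Ccr2 (54.0 to 115 against 74.4 to 115), of C1qa, of Lyz2 and of Nr4a1. Ptprc was itself higher in C3-/- tumors, by 0.52 on the log2 scale (SE 0.19, edgeR unadjusted p = 0.0235). All 5 leukocyte markers had a fold change above 0, yet their summed level overlapped (210.0 to 267.5 CPM in WT, 177.7 to 334.7 CPM in C3-/-). Of 13 macrophage and monocyte markers, 8 were above 0 and 5 below, the summed level was 1285 to 1585 CPM against 984 to 2081 CPM, and no marker was near 0 counts. Among them Ms4a7 was higher by 0.90 (unadjusted p = 0.0304) and Itgam lower (log2 fold change -0.57, unadjusted p = 0.0435). The 6 nonclassical monocyte markers summed to 193 to 251 CPM against 188 to 274 CPM. The part of these cells in the Cx3cr1 values was not tested.

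**Figure D2:**
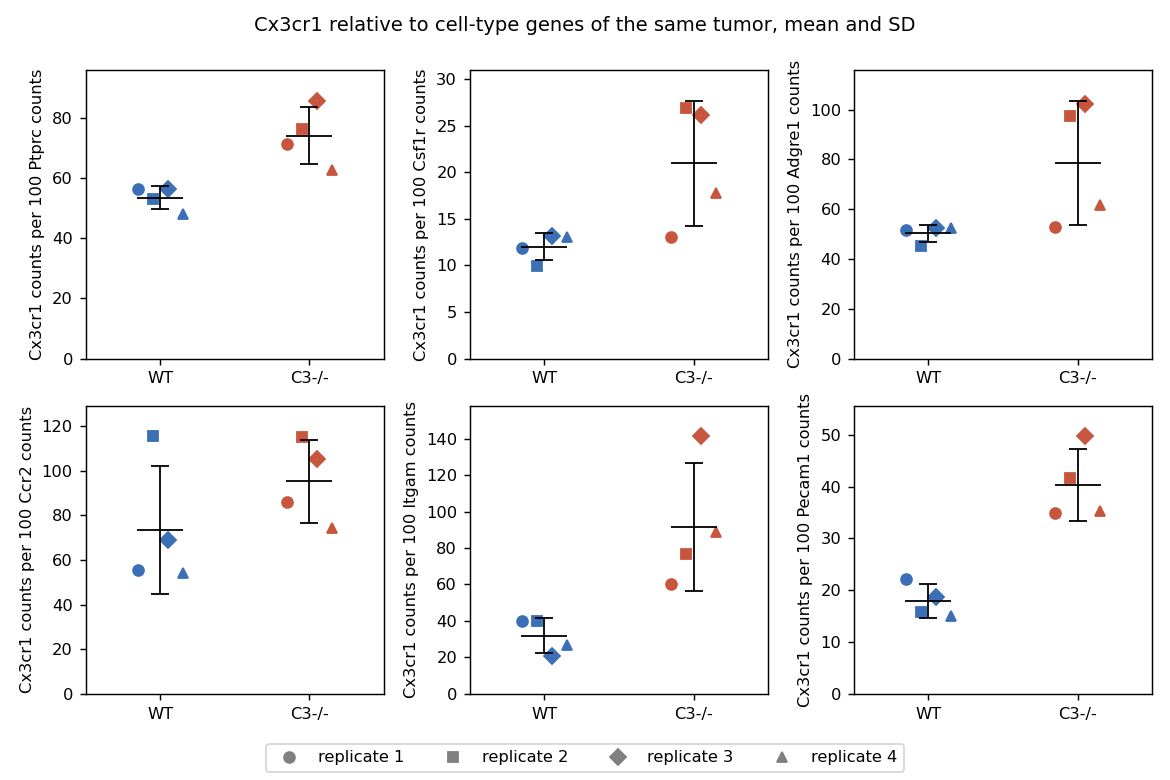
Cx3cr1 counts per 100 counts of a cell-type gene in the same tumor (y axis) for 4 WT (blue) and 4 C3-/- (red) tumors, with mean and SD bars and replicate numbers as marker shapes. Relative to Ptprc, Adgre1, Itgam and Pecam1 every C3-/- tumor lies above every WT tumor (for Ptprc, at least 62.8 against at most 56.4), and relative to Csf1r and Ccr2 the genotypes overlap.

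The model of Cx3cr1 in the deposited table spans 168264 bases and overlaps 7 other genes in whole or in part, whereas its GENCODE vM39 model, also on mm39, spans 21197 bases. Its exons there share 78 bases, 1.7% of their length, with the antisense noncoding gene Gm33858, which had 0 to 10 counts. Among the genes overlapped by the deposited span, the muscle gene Xirp1 went from 0 to 1032 counts between tumors. In WT replicate 3 and C3-/- replicate 2, where Xirp1 had 0 counts, Cx3cr1 had 150 and 318. Csrnp1, Gorasp1 and Wdr48 overlapped between the genotypes, with log2 fold changes of -0.34, 0.23 and 0.24, and the remaining Ttc21a and 1700019L13Rik had at most 8 counts.

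Cxcl13, the B cell attractant that binds Cxcr5, had the lowest fold change of the ligands tested. It lies on mm39 chromosome 5 from 96104810 to 96108927. WT replicates 1 to 4 had 6.16, 6.48, 5.12 and 12.7 CPM and C3-/- replicates 1 to 4 had 2.34, 4.14, 2.21 and 3.28 CPM. Every C3-/- tumor was below every WT tumor, and WT replicate 4 was far above the rest of its group. On the log2 scale the difference was -1.35 (SE 0.34, unadjusted p = 0.00266 by edgeR), or -0.98 without WT replicate 4, and DESeq2 gave an adjusted p of 0.0658. Without C3-/- replicate 2 DESeq2 called it (adjusted p = 0.0296, with 0.149% of all genes called), and without any other single tumor it did not (0.0555 to 0.9997). Its receptor Cxcr5 had too few counts to be tested. The 5 B cell markers summed to 7.23 to 78.9 CPM in WT and 18.7 to 88.4 CPM in C3-/- tumors, and the 3 of them tested had fold changes above 0, with Cd79a higher in C3-/- tumors by 1.08 (unadjusted p = 0.0358, 4 to 32 counts per tumor). The mesothelial markers Upk3b (log2 fold change -1.43, unadjusted p = 0.0025) and Lrrn4 (-1.30, unadjusted p = 0.00563) were lower in all C3-/- tumors as well (1.45% of all genes were). Their companions Wt1 (-0.59) and Msln (-0.08) overlapped, and the summed level of the 4 was 484 to 569 CPM against 363 to 547 CPM. Other lists also had lower genes at an unadjusted edgeR p below 0.05 (2.07% of all genes were). These were 3 of 5 hepatocyte markers tested (median log2 fold change -3.26 over the 5) and 2 of 6 cell cycle genes. The summed hepatocyte level overlapped, at 16.8 to 76.4 CPM in WT, highest in WT replicate 4, and 11.5 to 23.1 CPM in C3-/- tumors. The part of these cells in the Cxcl13 values was not tested.

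Ccl25, a ligand of Ccr9 known from thymus and small intestine, was at 8.33, 7.01, 7.76 and 8.13 CPM in WT tumors and 8.10, 15.8, 11.6 and 13 CPM in C3-/- tumors. C3-/- replicates 2, 3 and 4 lay above the WT tumors and C3-/- replicate 1 lay among them. C3-/- exceeded WT by 0.63 on the log2 scale (SE 0.22, unadjusted p = 0.0156 by edgeR), and Ccr9 was not tested for lack of counts. In the GENCODE vM39 models the exons of Ccl25 share 604 bases, 4.8% of their length, with Elavl1 on the opposite strand. In the deposited coordinates these genes meet only between the start of Ccl25 at 4375210 and the end of Elavl1 at 4375413. Elavl1 was at means of 110.6 CPM in WT and 136.6 CPM in C3-/- tumors (log2 fold change 0.30, SE 0.15). With the strand setting of the counting not given, reads of the shared bases cannot be told apart. Ccl6, a myeloid ligand of rodents, was at 179.6, 227, 402 and 264 CPM in WT tumors and 247, 129, 90.3 and 185 CPM in C3-/- tumors. It was the most abundant of the 31 ligands per length, and its genotypes overlapped (log2 fold change -0.72, SE 0.32, unadjusted p = 0.0493 by edgeR, and -0.46 without WT replicate 3). Without C3-/- replicate 1, DESeq2 also called Ccl25 (adjusted p = 0.0302) and Ccl6 (0.0407), in a fit that called 116 genes, or 0.73% of all, against 16 with every tumor kept. The neighboring ligand Ccl9, another attractant of myeloid cells, had 71.5 to 122 CPM in WT and 40.1 to 101 CPM in C3-/- tumors (log2 fold change -0.40).

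Per length, as FPKM deposited by the authors (here the normalized count per base of gene model, times a constant), the ligands Ccl6 (mean 119 over 8 tumors), Cxcl17 (79.4), Pf4 (45.5), Cxcl14 (44.5) and Ccl8 (30.3) stood highest. Pf4 and Cxcl14 did not differ beyond their spread, and neither did Ccl8 and those that followed, Ccl9 (25.4), Cx3cl1 (23.9), Cxcl16 (22.4) and Cxcl5 (21.2). In WT tumors alone Ccl9 (mean 29.0) stood above Ccl8 (25.7). Receptors were lower, with Ackr3 at 12, Ccr1 at 9.97, Cxcr4 at 7.23, Cx3cr1 at 3.69 and Ccr2 at 3.03 FPKM. In WT tumors Cx3cr1 (2.51 ± 0.140 FPKM, SD, n = 4) and Ccr2 (2.50 ± 0.780) had close means, and in C3-/- tumors they were at 4.87 ± 1.04 and 3.57 ± 1.33 FPKM.

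**Figure D3:**
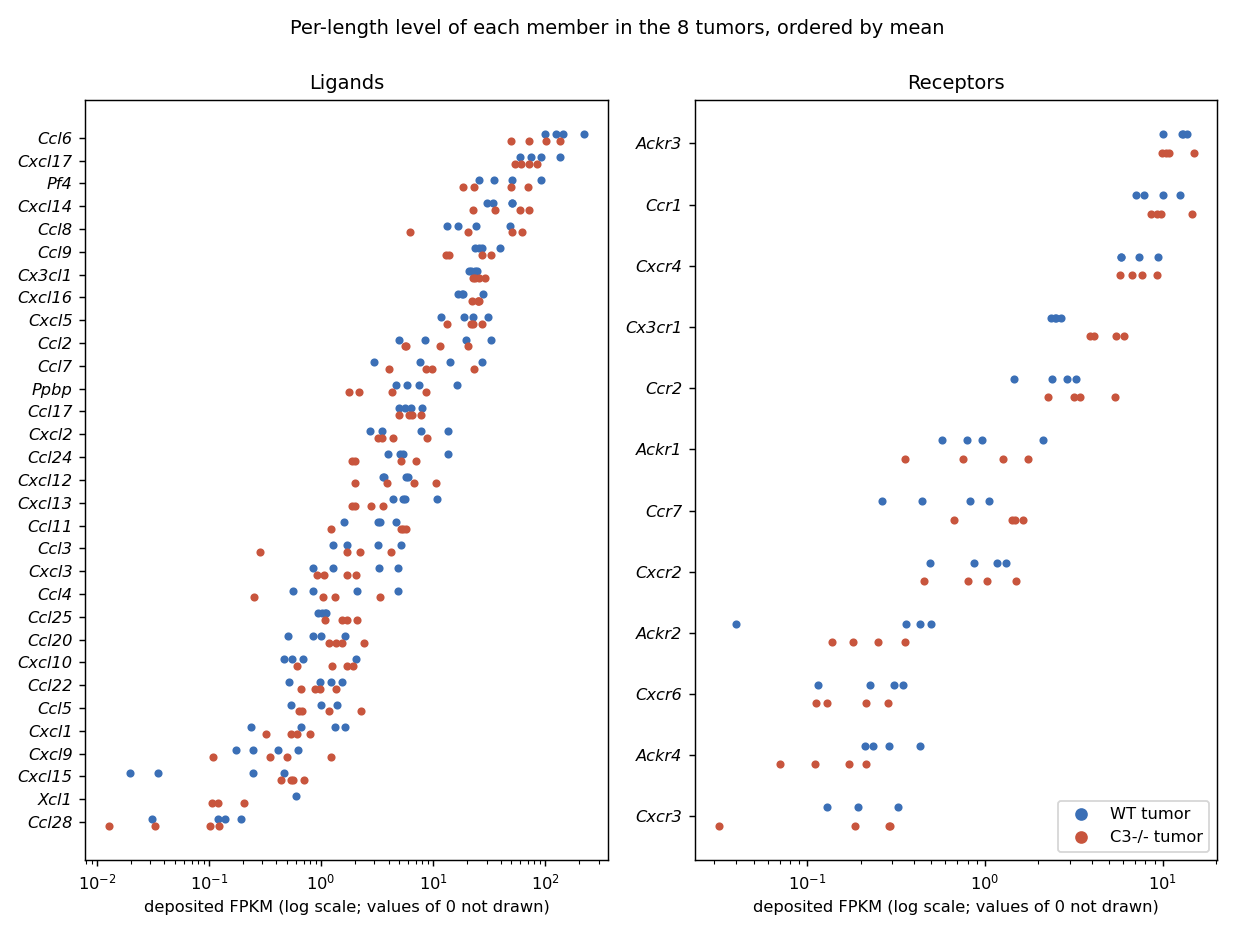
Deposited FPKM on a log scale (x axis) of 31 ligands and 12 receptors, ordered by their mean, with a point for each WT (blue) and C3-/- (red) tumor. Ccl6 (mean 119 FPKM) tops the ligands and Ackr3 (12 FPKM) the receptors, and the genotypes stand apart for Cx3cr1 and Cxcl13.

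Of these abundant ligands, Cxcl17, a mucosal attractant of myeloid cells, was at 70.1, 45.4, 105 and 57.7 CPM in WT and 55.7, 65.8, 47.0 and 41.3 CPM in C3-/- tumors (log2 fold change -0.41). Cxcl14, an epithelial and stromal chemokine, was at 62.9, 93.8, 55.7 and 93.2 CPM against 132, 42.1, 65.6 and 111 CPM (0.20). Both overlapped, and the highest Cxcl14 came from C3-/- replicate 1. Ccl8, a monocyte attractant, was at 12.4, 8.51, 6.93 and 25.1 CPM against 32.0, 3.19, 10.6 and 26.4 CPM (0.44, but 0.0094 without C3-/- replicate 1 and 0.96 without WT replicate 4). Its levels differed by 10 times between the lowest and the highest of the C3-/- tumors.

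Pf4 and Ppbp are stored in platelets, and Pf4 is also made by macrophages. Pf4 was at 18.4, 25.5, 66.4 and 36.6 CPM in WT and 51.4, 13.4, 16.6 and 36.5 CPM in C3-/- tumors (log2 fold change -0.31). Ppbp had 5.12 to 17.7 CPM against 1.96 to 9.57 CPM (-0.99, but -0.49 without WT replicate 3 and -1.61 without C3-/- replicate 4). Both were highest in WT replicate 3. All 4 platelet and megakaryocyte markers tested were below 0, with Gp1ba lower in every C3-/- tumor (log2 fold change -0.99, unadjusted p = 0.0207), and the summed level of the 6 listed was 54.5 to 74.3 CPM against 44.1 to 62.3 CPM. The part of platelets in these values was not tested.

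None of the monocyte attractants Ccl2 and Ccl7 and their receptor Ccr2 had an unadjusted edgeR p below 0.05 (0.326, 0.766 and 0.111). Ccl2 was at 9.70, 5.73, 37.6 and 22.5 CPM in WT and 6.55, 6.44, 13.1 and 23.6 CPM in C3-/- tumors (log2 fold change -0.60, SE 0.58, but -0.033 without WT replicate 3 and -1.12 without C3-/- replicate 4). Ccl7 was at 6.16, 2.41, 22.2 and 11.5 CPM against 7.91, 3.30, 6.93 and 18.8 CPM (-0.20, SE 0.64). Both ligands were highest in WT replicate 3, and the genotypes overlapped. Ccr2 was at 21.9, 9.87, 16.3 and 19.9 CPM against 21.8, 15.5, 23.4 and 37.1 CPM (0.52, SE 0.30). Ccr1, the receptor for Ccl3, Ccl5 and other inflammatory ligands, was at 22.3, 20.1, 35.9 and 28.8 CPM against 28.1, 26.7, 24.6 and 41.9 CPM (0.18, SE 0.23). Both receptors were highest in C3-/- replicate 4. Of the Ccr1 ligands and their relatives, Ccl3 ranged from 0.980 to 3.99 CPM in WT and from 0.224 to 3.28 CPM in C3-/- tumors (-0.43) and Ccl4 from 0.377 to 3.24 CPM and from 0.168 to 2.24 CPM (-0.47). Ccl5, a product of T cells among others, had 0 counts in WT replicate 1 and at most 2.20 CPM elsewhere (0.69). The exons of Ccl3 share 35.6% of their bases with the noncoding gene Gm53692 on the opposite strand, so its count is uncertain.

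The neutrophil attractants Cxcl1, Cxcl2, Cxcl3 and Cxcl5 lie within 1 group of 7 ligand genes on mm39 chromosome 5, from 90907219 to 91053797, and signal through Cxcr2. Cxcl2 was at 7.28, 5.65, 28.4 and 16.2 CPM in WT and 7.30, 6.72, 9.08 and 18.4 CPM in C3-/- tumors (log2 fold change -0.47, SE 0.51). Cxcl1 was at 1.24, 0.452, 3.09 and 2.55 CPM against 1.17, 0.616, 1.01 and 1.53 CPM (-0.76, SE 0.54). Cxcl3 ranged from 2.99 to 17.2 CPM and from 3.21 to 7.22 CPM (-0.84, but -0.34 without WT replicate 3 and -1.13 without WT replicate 1). All 3 had their highest value in WT replicate 3 and the next highest in WT replicate 4 or C3-/- replicate 4. Cxcl5 was at 35.0, 22.0, 58.5 and 42.5 CPM against 42.7, 52.0, 41.0 and 24.9 CPM, with genotypes that overlapped (0.02, SE 0.29). In the GENCODE vM39 models its exons share 27.6% of their bases with the noncoding gene Gm72413 on the opposite strand. Gm72413 is not among the deposited genes, so its level is not known. With the strand setting of the counting not given, the count of Cxcl5 is uncertain. Cxcr2, carried by neutrophils, was at 3.54, 1.51, 4.07 and 2.68 CPM against 3.18, 1.40, 2.46 and 4.65 CPM (-0.01, SE 0.41). Cxcl15, a lung chemokine in the same gene group, had 0.0425 to 0.995 CPM in WT and 0.946 to 1.51 CPM in C3-/- tumors. Its fold change was above 0 (1.58, SE 0.72), as was that of Cxcl5. WT replicates 3 and 4 had 1 Cxcl15 count each, and the highest tumor had 27. The Cxcl15 fold change was 2.58 without WT replicate 1 and 1.14 without WT replicate 4. None of Cxcl1, Cxcl2, Cxcl3, Cxcl5 and Cxcl15 passed the unadjusted edgeR threshold, so no direction is drawn for the group. Cxcl2 and Cxcl3 share a stretch of 116 bases at 98.3% identity, so reads there may have been split between them or dropped.

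The 250 bases before the start of Cxcl1, Cxcl2 and Cxcl3 are shown because these genes were high in the same tumors, with Cx3cr1 and Cxcl13, the genes whose genotypes stood apart, for comparison. They were taken from RefSeq promoters on GRCm38.p6, an older build than the mm39 of the table, which held 33 of the 43 genes. Capitals mark the NF-kB motif GGGANNTTC on either strand. In Cxcl1, Cxcl2 and Cxcl3 a hit on each strand overlaps the other to give the same 11 letters.
Cxcl1, chr5:90890995-90891244, plus strand: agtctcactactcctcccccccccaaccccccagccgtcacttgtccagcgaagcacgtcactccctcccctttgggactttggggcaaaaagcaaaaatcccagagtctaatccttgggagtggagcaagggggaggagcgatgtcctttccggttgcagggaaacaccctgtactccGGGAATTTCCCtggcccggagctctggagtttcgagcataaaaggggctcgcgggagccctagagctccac
Cxcl2, chr5:90903649-90903898, plus strand: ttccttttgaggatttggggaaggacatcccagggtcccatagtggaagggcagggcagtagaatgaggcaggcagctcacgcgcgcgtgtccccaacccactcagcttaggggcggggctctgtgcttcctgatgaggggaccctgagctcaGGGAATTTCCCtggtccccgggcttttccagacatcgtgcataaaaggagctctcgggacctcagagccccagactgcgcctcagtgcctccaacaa
Cxcl3, chr5:90785851-90786100, plus strand: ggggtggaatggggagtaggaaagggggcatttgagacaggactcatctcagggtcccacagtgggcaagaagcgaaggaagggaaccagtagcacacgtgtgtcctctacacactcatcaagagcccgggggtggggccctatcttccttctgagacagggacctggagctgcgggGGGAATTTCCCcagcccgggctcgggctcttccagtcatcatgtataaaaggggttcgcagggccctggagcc
Cx3cr1, chr9:120068297-120068546, minus strand: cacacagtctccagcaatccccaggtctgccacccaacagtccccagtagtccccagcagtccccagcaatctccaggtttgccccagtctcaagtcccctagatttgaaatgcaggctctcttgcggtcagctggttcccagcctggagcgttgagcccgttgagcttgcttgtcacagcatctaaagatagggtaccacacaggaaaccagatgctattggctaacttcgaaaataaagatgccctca
Cxcl13, chr5:95956689-95956938, plus strand: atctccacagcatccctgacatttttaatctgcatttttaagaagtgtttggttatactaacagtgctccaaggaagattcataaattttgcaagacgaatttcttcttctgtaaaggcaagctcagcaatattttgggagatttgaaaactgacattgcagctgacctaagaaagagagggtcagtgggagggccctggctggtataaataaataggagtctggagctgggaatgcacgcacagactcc
The motif lay 71, 97 and 73 bases before the start of Cxcl1, Cxcl2 and Cxcl3. It was found in 6 of the 33 upstream regions, the others being those of Cxcl9, Cxcl10 and Cxcr2, and in 3.23% of all 32851 RefSeq promoters. The interferon response element core GAAANNGAA was found in those of Ccl3, Ccr2, Cxcl9, Cxcl10 and Cxcl14 (7.13% of all promoters), and the PU.1 motif GAGGAAGT in those of Pf4 and Cxcr3 (2.44% of all). Neither Cx3cr1 nor Cxcl13 held any of the 3 in this window. These are letter matches only, to shortened core motifs that were chosen with these promoters already seen.

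Cxcl9 and Cxcl10, both induced by interferon, attract T cells through Cxcr3. Cxcl9 was at 1.24, 0.753, 0.527 and 1.91 CPM in WT and 1.08, 0.336, 3.72 and 1.53 CPM in C3-/- tumors (log2 fold change 0.54, SE 0.65). Cxcl10 was at 1.24, 1.05, 1.58 and 4.72 CPM against 2.85, 1.40, 4.35 and 3.94 CPM (0.51, SE 0.52, but 1.27 without WT replicate 4 and 0.29 without WT replicate 2). Both overlapped between the genotypes. Cxcr3 had 9, 0, 3 and 8 counts in WT and 11, 1, 8 and 6 counts in C3-/- tumors, so no difference could be judged at this depth.

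Cxcl12 binds Cxcr4, which signals, and Ackr3, which scavenges it. Cxcl12 was at 29.1, 47.4, 30.3 and 49.8 CPM in WT and 56.4, 16.6, 31.8 and 87.7 CPM in C3-/- tumors (log2 fold change 0.30, SE 0.43). Cxcr4 was at 10.5, 17.2, 13.5 and 10.7 CPM against 16.9, 12.3, 10.5 and 14 CPM (0.05, SE 0.22). The C3-/- tumors held both the lowest and the highest Cxcl12. Ackr3 was at 33.8, 43.9, 43.5 and 46.5 CPM against 50.7, 37.0, 33.3 and 35.7 CPM (-0.10, SE 0.17). The ranges of all 3 overlapped.

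Cxcl16, a membrane-bound ligand of Cxcr6, was at 50.1, 55.8, 85.3 and 55.4 CPM in WT and 77.0, 78.4, 77.1 and 68.7 CPM in C3-/- tumors (log2 fold change 0.29, SE 0.17). WT replicate 3 alone exceeded the C3-/- tumors, and without it the genotypes did not overlap, as for 6.73% of all genes. Its exons share 84.8% of their bases with genes on the opposite strand, Med11 (log2 fold change -0.13) and Zmynd15 (0.74, unadjusted p = 0.00462, higher in every C3-/- tumor). The strand setting of the counting is not given in the sources used here, so the counts of Cxcl16 and these genes cannot be told apart with certainty. Cxcr6 had 7, 8, 3 and 16 counts in WT and 9, 10, 4 and 4 counts in C3-/- tumors.

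Ackr4, which scavenges Ccl19, Ccl21 and Ccl25, was at 1.55, 2.34, 1.28 and 1.15 CPM in WT and 0.936, 1.18, 0.378 and 0.602 CPM in C3-/- tumors. The ranges met only between WT replicate 4 (1.15) and C3-/- replicate 2 (1.18), and the counts behind them were 6 to 31 per tumor. On the log2 scale C3-/- differed from WT by -1.01 (SE 0.42, unadjusted p = 0.037 by edgeR). Its exons share 20.3% of their bases with Acad11 on the opposite strand (log2 fold change 0.13). Ackr1 (-0.12), a receptor of venules and red cells, and Ackr2 (-0.52), a scavenger of inflammatory CC ligands, overlapped between the genotypes. Of Ackr1's exonic bases 30.4% are shared with other genes, Cadm3 on the same strand among them. All 4 atypical receptors had fold changes below 0, where 50% of all genes tested were above 0. Only Ackr4 had an unadjusted edgeR p below 0.05, and Ackr1 turned to 0.43 without WT replicate 4.

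Other genes tie to dendritic cell, lymphocyte and eosinophil traffic. Ccr7, which leads dendritic cells to lymph nodes, had 0.527 to 2.11 CPM in WT and 1.34 to 3.28 CPM in C3-/- tumors (log2 fold change 1.0, SE 0.45, unadjusted p = 0.0504). C3-/- replicate 2 alone lay within the WT range. Ccl20, the ligand of Ccr6, had 0.723 to 2.34 CPM against 1.70 to 3.47 CPM (0.72). The Ccr4 ligands Ccl17 (2.56 to 4.14 against 2.58 to 4.05 CPM) and Ccl22 (1.21 to 3.62 against 1.57 to 3.21 CPM) overlapped between the genotypes, with log2 fold changes of 0.04 (SE 0.26) and -0.13 (SE 0.37). Of the Ccr3 ligands, Ccl11 had 1.73 to 5.15 CPM against 1.34 to 6.29 CPM (0.45) and Ccl24 had 5.20 to 17.9 CPM against 2.46 to 9.31 CPM (-0.78). The fold change of Ccl24 was -0.24 without WT replicate 3 and -1.21 without C3-/- replicate 1. Ccl28, a mucosal ligand, had 1 to 15 counts and Xcl1, the ligand of cross-presenting dendritic cells, 0 to 5 counts per tumor.

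**Figure D4:**
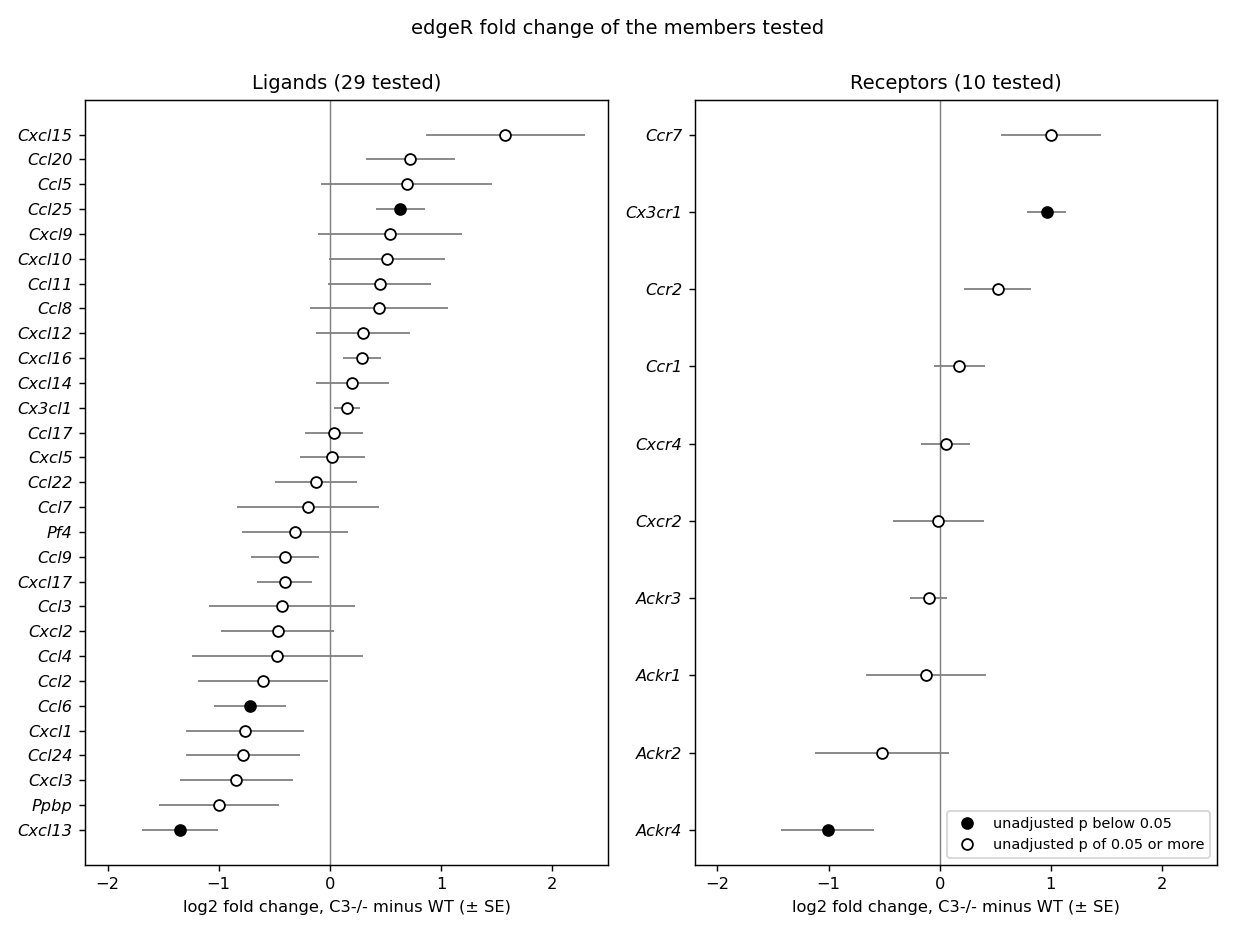
Log2 fold change of C3-/- relative to WT tumors by edgeR (x axis, bars are SE) for the 29 ligands and 10 receptors tested. Filled points have an unadjusted p below 0.05. Fold changes run from -1.35 (Cxcl13) to 1.58 (Cxcl15), and Cx3cr1 (0.96) and Ccr7 (1.0) lead the receptors.

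These genes varied more between tumors of a genotype than most. The median within-genotype SD was 0.71 on the log2 scale, against 0.31 over all genes tested, and 32 of 39 were above the median of all genes. The comparison was not matched for level, and 10 of the 39 fell below 10 counts in at least 1 tumor, Ccl4 and Ccl5 among them. Cx3cl1 (0.13), Cx3cr1 (0.22) and Ackr3 (0.24) varied least, and Ccl7 (1.19), Ccl8 (1.21), Ccl4 (1.27) and Ccl5 (1.34) varied most. WT replicate 3 held the highest level of 17 genes, or 43.6% of the 39, although it held the highest level of 19.1% of all genes tested. The 17 were Ccl2, Ccl3, Ccl4, Ccl6, Ccl7, Ccl9, Ccl17, Ccl22, Ccl24, Cxcl1, Cxcl2, Cxcl3, Cxcl5, Cxcl16, Cxcl17, Ppbp and Pf4, all of them ligands. No receptor was highest there. WT replicate 2 and C3-/- replicate 2 each held the lowest level of 12 genes, against 10.89% and 15.57% of all genes tested. Without WT replicate 3 the fold changes of Ccl3 (0.0042), Ccl4 (0.30), Ccl7 (0.45), Ccl22 (0.099), Cxcl2 (0.088) and Pf4 (0.14) and of the receptor Cxcr2 (0.18) turned from below to above 0, and the median over the 39 was 0.14.

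**Figure D5:**
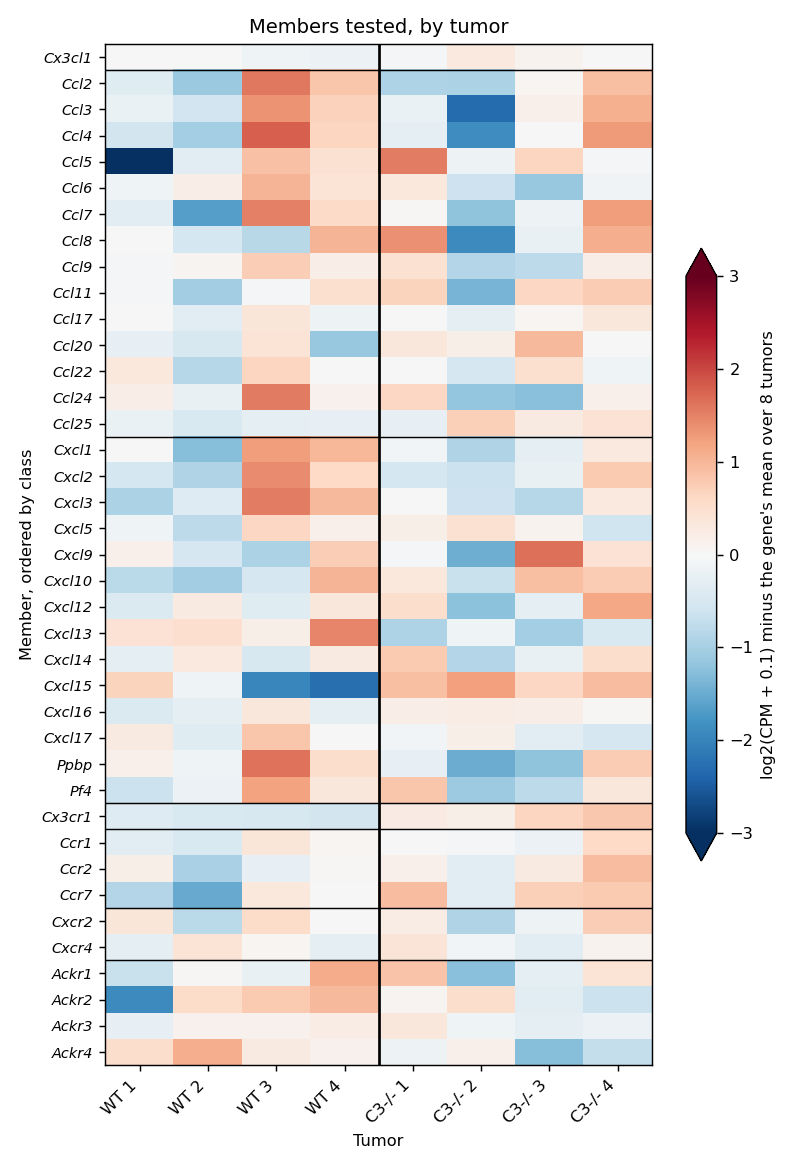
Log2(CPM + 0.1) minus the mean of the gene over the 8 tumors (color) for the 39 genes tested (rows, by class) in 4 WT and 4 C3-/- tumors (columns). WT replicate 3 holds the highest level of 17 ligands, Ccl2, Ccl7, Cxcl1 and Cxcl2 among them, whereas Cx3cr1 splits by genotype.

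The rest of the chemokine system was read from 63 further genes, of which 48 were tested. None was called by edgeR or DESeq2 (0 in each), and 9 of the 48 had an unadjusted edgeR p below 0.05 (5.11% of all genes), 8 of them higher (3.03% of all) and 1 lower (2.07% of all) in C3-/- tumors. The lower gene was Ccl21a, a Ccr7 ligand of lymphatic vessels (log2 fold change -1.33, unadjusted p = 0.0469). The paralogs of Ccl21a are near-identical, so its count is uncertain. Ccl27a, a skin chemokine, was higher (0.63, unadjusted p = 0.0223). The other receptors were mostly too low, with 10 of 12 not tested, and Ccrl2 (0.09) overlapped. Among 23 genes of receptor signaling, Pik3cg, the leukocyte kinase of G protein-coupled receptors (0.55, unadjusted p = 0.0253), and Vav1, a guanine exchange factor (0.47, unadjusted p = 0.0179), were higher, and fold changes ran from -0.27 (Rgs16) to 0.74 (Grk3). Of 8 proteases that process chemokines, the macrophage elastase Mmp12 was higher (0.50, unadjusted p = 0.0317) and Mmp9 was lowest (-0.31). Among 12 inducers of chemokine genes tested, those higher included the interferon-response factor Irf1 (0.49, unadjusted p = 0.00457) and the NF-kB genes Nfkb2 (0.34, unadjusted p = 0.00878) and Relb (0.36, unadjusted p = 0.0316), with the ends of the list at Il6 (-0.70) and Il1b (1.10). Vav1, Mmp12, Nfkb2, Relb and Irf1 were above the WT range in every C3-/- tumor, which was so for 2.28% of all genes.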

How the data were processed

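Tumor RNA of 4 WT and 4 C3-/- hosts was analysed. The authors deposited raw counts per gene (HTSeq, mm39), the size-factor-normalized signal (each count divided by a constant of its tumor), FPKM, and their own log2 fold changes and p-values from DESeq2, which were not used. The deposited FPKM was found to be the normalized signal per gene length times 1 constant. The paper names STAR as aligner, and the submitters' processing notes name HISAT2 2.0.5 and DESeq2 1.20.0. The strand setting of the counting is not given in the sources used here. Labels do not say how libraries were batched, and each tumor is 1 mouse.

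Counts were tested with edgeR 4.0.16 (TMM, genes kept by filterByExpr at minimum count 10, glmQLFit and glmQLFTest, Benjamini-Hochberg adjustment over 16610 genes) in R 4.3.3, first tried on simulated data. DESeq2 1.42.0, limma-voom (limma 3.58.1), other filters and scalings, the replicate block and each tumor left out were alternatives. CPM used TMM totals. Exon overlaps came from GENCODE vM39, whose gene models differ in part from the deposited ones. Near-identical stretches came from blastn 2.17.0 (at least 95% identity over 100 bases) and promoters from RefSeq. Members, lists and the naming rule (every member, with values per tumor for those past an unadjusted p of 0.05, the 5 most abundant of each class and known receptor pairs) were chosen with earlier results of these data known. Some genes of the lists are not reported here.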

Additional observations from a re-analysis of the deposited data

Results flagged for a closer look

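Among the 39 chemokine genes tested and the total count, 80 groups of 4 tumors were examined for a tumor far from the others, and 4 stood out where chance gives 4. Ccl11 was at 1.34 CPM in C3-/- replicate 2 and at 5.67 to 6.29 CPM in the other C3-/- tumors. Ccr7 was at 1.34 CPM in the same tumor and at 2.84 to 3.28 CPM in the others. Cxcl16 was at 68.7 CPM in C3-/- replicate 4 and at 77.0 to 78.4 CPM in the others. Ackr2 was at 0.124 CPM in WT replicate 1, where it had 2 counts, and at 1.13 to 1.57 CPM in the other WT tumors.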

How the results depend on the processing

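Of the 39 genes tested, 24 kept the direction of their fold change under each other tool, filter and scaling, the block and each tumor left out from edgeR, wherever these gave a value. DESeq2 called 1 gene (Cx3cr1, log2 fold change 0.96) where edgeR called 0, and the other settings, among them limma-voom, no filter, robust fitting and DESeq2's size factors, called 0. With 1 tumor left out, edgeR called 0 each time and DESeq2, a setting added after seeing the data, called 0 to 3 of them, in fits that called 1 to 116 of all genes. The count of genes whose genotypes did not overlap was 2 and ranged from 2 to 5, with 4 without WT replicate 1 (adding Cxcl15 and Ackr2), 4 without WT replicate 3 (Ccl20 and Cxcl16) and 5 without C3-/- replicate 2 (Ccl11, Ccr7 and Ackr4), while the share over all genes, 3.73% with every tumor, was 5.99%, 6.73% and 6.88% in these and 4.64% to 14% over the 8 tumors left out. The median over the 39 went from -0.18 to 0.14. Fold changes crossed 0 for 15 genes when 1 tumor was left out, with ranges of -1.02 to 0.0042 for Ccl3, -1.24 to 0.30 for Ccl4, -0.80 to 0.45 for Ccl7, -0.080 to 0.18 for Ccl17, -0.35 to 0.099 for Ccl22, -0.90 to 0.088 for Cxcl2, -0.18 to 0.27 for Cxcl5, -0.21 to 0.96 for Cxcl9, -0.16 to 0.58 for Cxcl12, -0.065 to 0.43 for Cxcl14, -0.72 to 0.14 for Pf4, -0.018 to 0.35 for Ccr1, -0.33 to 0.22 for Cxcr2, -0.080 to 0.21 for Cxcr4 and -0.51 to 0.43 for Ackr1. With WT replicate 4 and C3-/- replicate 1 both left out, also added later, Cxcr4 was at -0.16 and Ackr1 at 0.044. The cause was not tested. With the replicate number as a block, edgeR called 0 genes, the block changed no call, and same-numbered tumors correlated in their deviations at -0.027, 0.493, -0.356 and 0.594 for numbers 1 to 4, with 4 of 8 tumors correlating best with their own number. The replicate numbers come from the sample titles and do not all match the numbers in the tumors' own labels. These correlations therefore cannot show or exclude a pairing. The labels tie no tumors together, and the numbers were not used as pairs. With at least 10 counts in every tumor, 29 genes could be tested and the other 10 gave no value. Within-genotype SDs ran from 0.13 (Cx3cl1) to 1.34 (Ccl5) on the log2 scale, so the precision differed between genes, and at 0 to 16 counts per tumor Ccl28, Xcl1, Cxcr3 and Cxcr6 were too low to compare.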
